A study of Mus musculus with 30 samples.

Results

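Histone modifying enzymes were taken as every gene on the array whose symbol names a lysine demethylase (Kdm), a lysine methyltransferase (Kmt, Setd, Suv, Ehmt, Ezh), an arginine methyltransferase (Prmt), a histone deacetylase (Hdac) or a lysine acetyltransferase (Kat) with a number or letter after the stem. The rule found 64 of the 18781 genes with a probe set of their own, and no measured value entered it except that a gene with several probe sets was read from the one with the highest mean. Of these, 22 are lysine methyltransferases, 18 lysine demethylases, 11 deacetylases, 7 arginine methyltransferases and 6 lysine acetyltransferases. Another 3 genes that fit the rule, Prmt2, Kat14 and Kat8, share their probe sets with another gene and were not analysed on their own. The tissues are skeletal muscle (SM), liver (LIV) and epididymal white adipose tissue (WAT) of male C57Bl/6J mice (C57Bl/6 in the sample labels) aged 10 to 12 weeks on normal chow, each hybridised to an Affymetrix Mouse Gene 1.1 ST array. The 5 fasted mice lost their food at 9 a.m. and were killed 24 h later, and the 5 fed mice kept free access to food. No allele or agent differs between the groups, and 30 arrays were made in all, 5 for each tissue and diet. The comparison asks how the expression of these enzymes differs after fasting in each tissue, and whether that change differs between tissues.

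Histone modifying enzymes add or remove small chemical groups on the tails of histones, the proteins around which DNA is wound. Acetylation and methylation of histone H3 at lysine 4 (H3K4) mark active genes, methylation at lysine 9 (H3K9) or lysine 27 (H3K27) marks silent ones, methylation at lysine 36 (H3K36) marks transcribed gene bodies, and methylation of histone H4 at lysine 20 (H4K20) is tied to chromatin compaction and the cell cycle. The enzymes draw acetyl-CoA, S-adenosylmethionine, oxoglutarate or NAD from metabolism, and class IIa deacetylases are known in liver and muscle as targets of hormone and nerve signals.

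The values are log2 signals after robust multi-array averaging (RMA), a normalisation that draws the arrays toward a like distribution, so a change is relative to the other genes on the array. In whole tissue, fewer cells of one type and less RNA per cell cannot be told apart. A gene was called when the adjusted p of limma's moderated test was under 0.05 and the change reached 1.3-fold (0.38 on the log2 scale), and "rose" and "fell" are written only of called changes. Array 4 of fed LIV and array 5 of fasted SM resembled their groups least (mean correlation with the group 0.987 and 0.98, against 0.991 to 0.996 for the other 28 arrays) and were left out of the fit. On array 5 of fasted SM the mean level of 9 lymphocyte markers was 8.14, while the 4 other fasted SM arrays lay between 4.04 and 4.3. Marker genes set the tissues apart as labelled, with a mean level of 9 hepatocyte markers from 12.53 to 12.63 in LIV and at most 5.63 elsewhere, of 12 muscle fibre markers from 12.49 to 12.6 in SM and at most 5.14 elsewhere, and of 10 adipocyte markers from 11.35 to 11.97 in WAT. In SM the adipocyte markers reached 8.37 to 10.08 on the fed and 8.41 to 9.16 on the fasted arrays, and 3 of the 10 (Lep, Plin1 and Retn) fell there.

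Of the 64 enzymes, 28 were called in at least 1 tissue, 24 of them in 1 tissue and 4 in 2. Calls in at least 1 tissue covered 43.8% of the enzymes and 28.6% of all genes, and calls in at least 2 tissues 6.25% of the enzymes and 7.26% of all genes. The 4 enzymes called in 2 tissues were Setdb2 and Setd4, which rose in WAT and LIV, Kdm3a, which rose in WAT and SM, and Hdac9, which fell in WAT and SM. No enzyme was called in all 3 tissues, as were 1.02% of all genes, and none was called in opposite directions in a pair of tissues. A total of 22 enzymes rose and 6 fell in some tissue. All genes were not counted by direction over the 3 tissues. The shares of all genes given below are for single tissues and cannot be set against these 2 counts. The sign of the change was above 0 for 49 of the 64 enzymes in WAT (51.5% of all genes), for 41 in LIV (58.9% of all genes) and for 46 in SM (49.1% of all genes), whatever their p. Fasted and fed arrays did not overlap, with the fasted ones higher, for 19 enzymes in WAT (11.6% of all genes), 17 in LIV (9.92%) and 24 in SM (12.5%), and with the fasted ones lower for 6 in WAT (10.1%), 3 in LIV (7.41%) and 11 in SM (10.4%). The median change of the enzymes was 0.15 in WAT, 0.06 in LIV and 0.15 in SM, where that of all genes was 0.01, 0.03 and 0.00 in that order on the log2 scale.

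**Figure D1:**
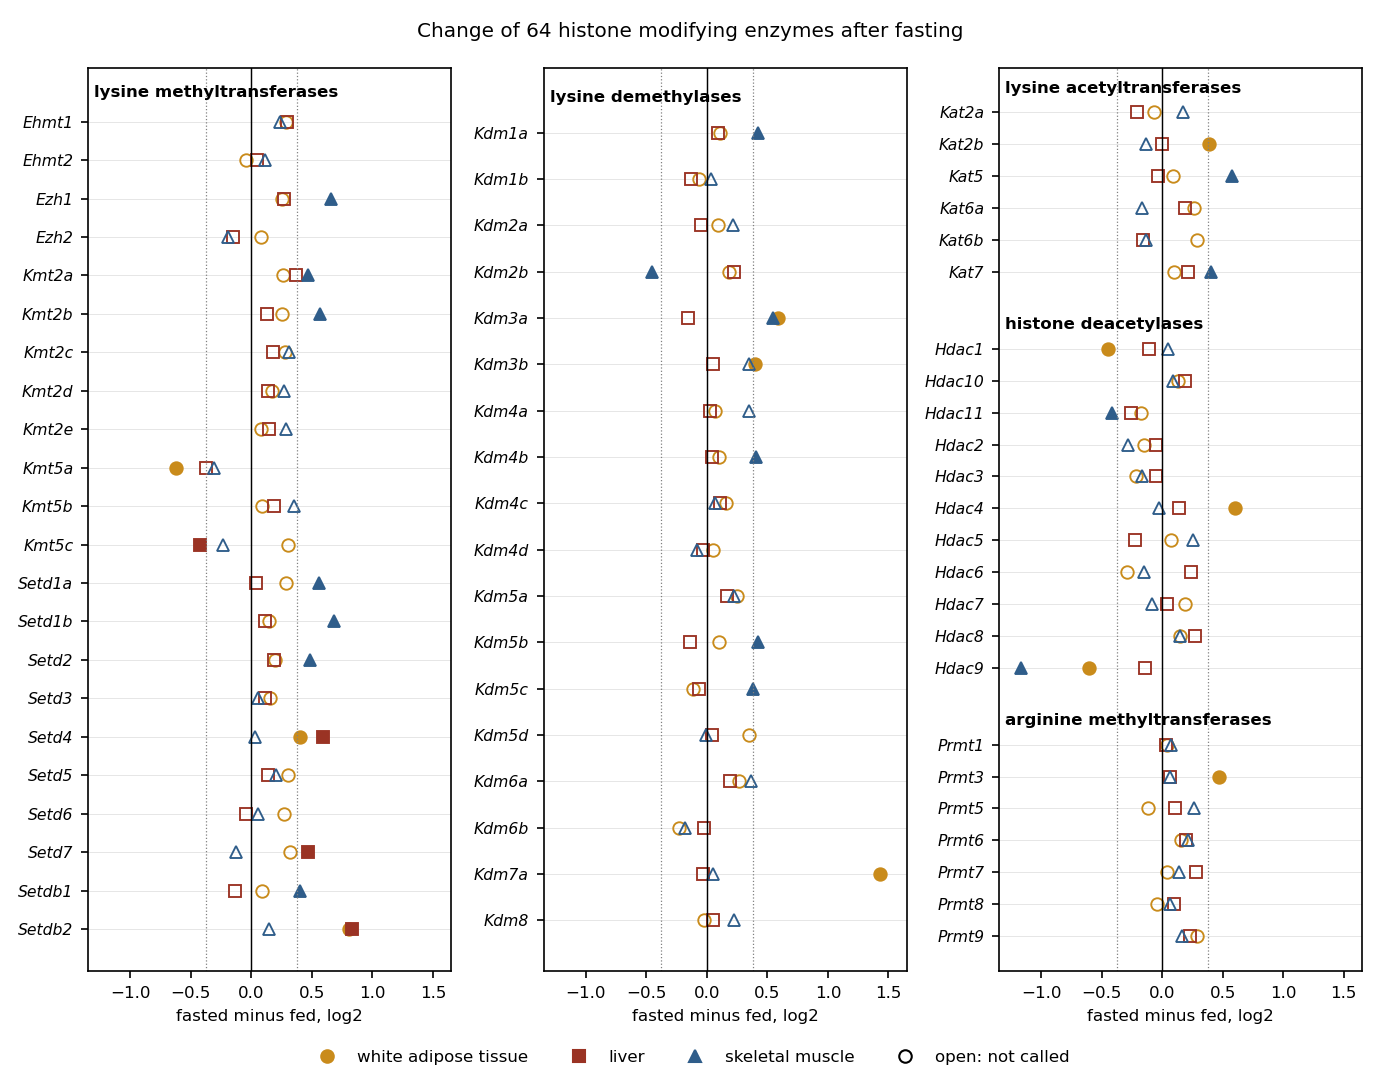
Change of each of the 64 enzymes (fasted minus fed, log2, x axis) by family, with circles for WAT, squares for LIV and triangles for SM. Filled symbols were called, dotted lines mark 1.3-fold. Kdm7a in WAT at 1.43 and Hdac9 in SM at -1.17 lie farthest from 0.

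Kdm7a in WAT, Setdb2 in LIV and Hdac9 in SM had the change of greatest size in their tissue. Their promoters, from RefSeq (GRCm38.p6, minus strand), run from 250 bases before to 50 bases after the start of a transcript and are shown to let their CG content be compared, since the density of CG pairs separates promoters of the broadly used kind from those of the regulated, cell type restricted kind. CG pairs are in capitals.

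Kdm7a, chr6:39206724-39207023: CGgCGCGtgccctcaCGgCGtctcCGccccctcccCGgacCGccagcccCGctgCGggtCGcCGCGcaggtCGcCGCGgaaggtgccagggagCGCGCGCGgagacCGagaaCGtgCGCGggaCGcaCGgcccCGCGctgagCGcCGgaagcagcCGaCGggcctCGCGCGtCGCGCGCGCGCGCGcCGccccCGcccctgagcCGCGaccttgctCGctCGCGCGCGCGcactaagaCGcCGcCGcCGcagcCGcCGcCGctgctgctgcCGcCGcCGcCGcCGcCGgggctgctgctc

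Setdb2, chr14:59440831-59441130: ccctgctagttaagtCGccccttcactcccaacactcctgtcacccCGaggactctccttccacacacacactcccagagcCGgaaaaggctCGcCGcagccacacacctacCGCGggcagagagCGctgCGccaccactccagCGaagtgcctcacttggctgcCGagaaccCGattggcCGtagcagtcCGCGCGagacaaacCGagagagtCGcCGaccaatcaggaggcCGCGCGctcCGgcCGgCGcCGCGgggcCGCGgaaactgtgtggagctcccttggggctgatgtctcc

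Hdac9, upstream start, chr12:34917046-34917345: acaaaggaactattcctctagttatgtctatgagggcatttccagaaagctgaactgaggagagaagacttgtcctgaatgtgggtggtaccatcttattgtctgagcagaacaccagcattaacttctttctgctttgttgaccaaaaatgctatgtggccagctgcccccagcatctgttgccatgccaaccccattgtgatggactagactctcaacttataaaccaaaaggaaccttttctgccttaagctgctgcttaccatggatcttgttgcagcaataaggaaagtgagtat

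Hdac9, downstream start, chr12:34528840-34529139: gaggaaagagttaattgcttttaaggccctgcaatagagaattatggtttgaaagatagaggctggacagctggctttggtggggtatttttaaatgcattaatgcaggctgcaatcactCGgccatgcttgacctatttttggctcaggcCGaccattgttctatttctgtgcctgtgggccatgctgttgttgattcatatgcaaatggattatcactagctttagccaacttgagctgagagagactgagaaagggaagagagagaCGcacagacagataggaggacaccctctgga

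The Kdm7a window holds 65 CG pairs, a number that only 3 of the 18124 windows of genes on the array reach or pass, itself included. The Setdb2 window holds 29, more than 81.2% of windows, whereas the Hdac9 windows hold 0 and 3. Among the 52 enzymes with a window, only Hdac9 and Setd5 have 5 or fewer CG pairs in their richest one, as do 25.7% of the genes on the array with a window. The enzymes' median was 26.5 CG pairs in the richest window and that of all these genes 17. The CCAAT box, searched on both strands as CCAAT, occurs in Setdb2 and in 25 of the 52 enzymes (48.1%, against 41.9% of genes), the E-box, searched as CACGTG, in 7 (13.5%, against 9.57%) and the forkhead site, searched as GTAAACA, in 2 (3.85%, against 3.5%). These matches are descriptions of the letters in the windows.

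In WAT, 11 of the 64 enzymes were called, 17.2% of them where 15.7% of all genes were called. Of these, 8 rose (12.5% of the enzymes, 7.99% of all genes) and 3 fell (4.69% of the enzymes, 7.75% of all genes). The lysine demethylases gave 3 that rose of 18, all among the 7 that act on H3K9, and the lysine methyltransferases 2 that rose and 1 that fell of 22. Kdm7a, which removes dimethyl marks from H3K9 and H3K27, measured 9.09, 9.22, 9.31, 9.02 and 9.18 on the fed WAT arrays and 10.74, 10.49, 10.52, 10.84 and 10.4 on the fasted ones. Every fasted array lay well above every fed one. Kdm7a rose 2.7-fold (1.43 ± 0.075 SE on the log2 scale, adjusted p = 1.08e-13), and a separate probe set of the gene gave a rise of 1.34. In LIV and SM its change was -0.04 and 0.05, not called in either.

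Kdm3a, an H3K9 demethylase known for its part in the thermogenic and fat-burning programme of adipocytes, measured 7.22, 7.43, 7.65, 7.34 and 7.4 in fed WAT and 8.02, 7.97, 7.9, 8.12 and 7.96 in fasted WAT. The groups did not overlap, and the rise was 0.59 ± 0.063 (adjusted p = 4.43e-08). Its close relative Kdm3b rose by 0.40 with array 3 of fed WAT, at 8.83, set apart from the other fed arrays at 8.57 to 8.64. The other 4 H3K9 demethylases, Kdm4a to Kdm4d, were not called in WAT, and the 7 had a median change of 0.16 there.

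Among the methyltransferases of WAT, Setdb2, which methylates H3K9, measured 5.81, 5.92, 5.83, 5.95 and 5.58 in the fed mice and 6.43, 6.9, 6.61, 6.92 and 6.24 in the fasted mice. It rose 1.75-fold (0.80 ± 0.134, adjusted p = 3.61e-05) without overlap. Kmt5a, the enzyme that places the first methyl group on H4K20 during cell division, measured 9.77, 9.74, 9.73, 9.57 and 9.55 in fed WAT and 8.98, 8.99, 9.04, 9.08 and 9.15 in fasted WAT. All fasted arrays lay below all fed arrays, a fall of 1.54-fold (-0.63 ± 0.067, adjusted p = 4.15e-08). Of 15 proliferation markers 7 fell in WAT as well, Mki67 by 0.82 and Top2a by 0.65, and their mean level went from 5.27 to 5.62 on the fed arrays to 4.87 to 5.2 on the fasted ones. Their part in the change of Kmt5a was not tested. Setd4, a SET domain protein, rose by 0.40, but the arrays overlapped: 3 fasted arrays lay between 5.46 and 5.57 and the other 2, at 5.03 and 4.99, close to the fed arrays at 4.82 to 5.01.

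The deacetylases of WAT moved both ways, with 1 of 11 that rose and 2 that fell. Hdac4, a class IIa deacetylase that shuttles between cytoplasm and nucleus, measured 7.26, 7.31, 7.42, 7.34 and 7.38 when fed and 7.85, 7.81, 8.0, 8.21 and 7.82 when fasted. It rose 1.51-fold (0.60 ± 0.065, adjusted p = 6.16e-08). Hdac9, of the same class, went the other way, from 6.57, 6.59, 6.22, 6.54 and 6.25 to 5.79, 5.82, 5.9, 5.77 and 5.87, a fall of 1.52-fold (-0.60 ± 0.081, adjusted p = 1.7e-06). Neither gene's fed and fasted arrays overlapped. The 2 remaining class IIa members, Hdac5 and Hdac7, changed by 0.07 and 0.19 and were not called. Hdac1, a class I deacetylase of the Sin3, NuRD and CoREST complexes, fell by 0.45 ± 0.069 (adjusted p = 1.24e-05), from 9.68 to 9.92 on the fed arrays to 9.2 to 9.51 on the fasted. Its other probe set fell by 0.46, and RefSeq lists an Hdac1 pseudogene that could share its probes.

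The remaining 2 calls of WAT were Prmt3, an arginine methyltransferase of the small ribosomal subunit, which rose by 0.47 ± 0.072, and Kat2b, the acetyltransferase also called PCAF, which rose by 0.39 ± 0.069. Kat2b lay just inside the limit of 1.3-fold and Kdm5d, at 0.35, just outside it. Calls near the limit depended on single arrays. Kat2b dropped to as little as 0.34 without array 1 or 2 of fed WAT or array 3 of fasted WAT, Setd4 to 0.34 without array 1, 3 or 4 of fasted WAT, and Kdm3b to 0.377 without array 5 of fed WAT, each then below 1.3-fold. Of 10 macrophage markers Cd163 and Cd14 rose in WAT by 1.13 and 0.64, with the mean level of the 10 from 7.5 to 7.68 on fed and 7.55 to 7.99 on fasted arrays. Of 12 muscle fibre markers Acta1 and Eno3 rose there by 1.53 and 0.42, with a mean level of 4.57 to 4.75 on fed and 4.69 to 5.14 on fasted arrays. Of 10 adipocyte markers Lep and Slc2a4 fell in WAT, with changes of -1.93 and -1.15, and 8 were not called. Their mean level was 11.77 to 11.97 on fed and 11.35 to 11.7 on fasted arrays. Of 9 hepatocyte markers Tat rose by 0.54, from a low mean level of 3.69 to 4.23. The part of these lists in the WAT changes was not tested. Without the minimum fold, 35 of the 64 enzymes passed in WAT (31.0% of all genes), 28 of them higher (16.3%) and 7 lower (14.6%).

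**Figure D2:**
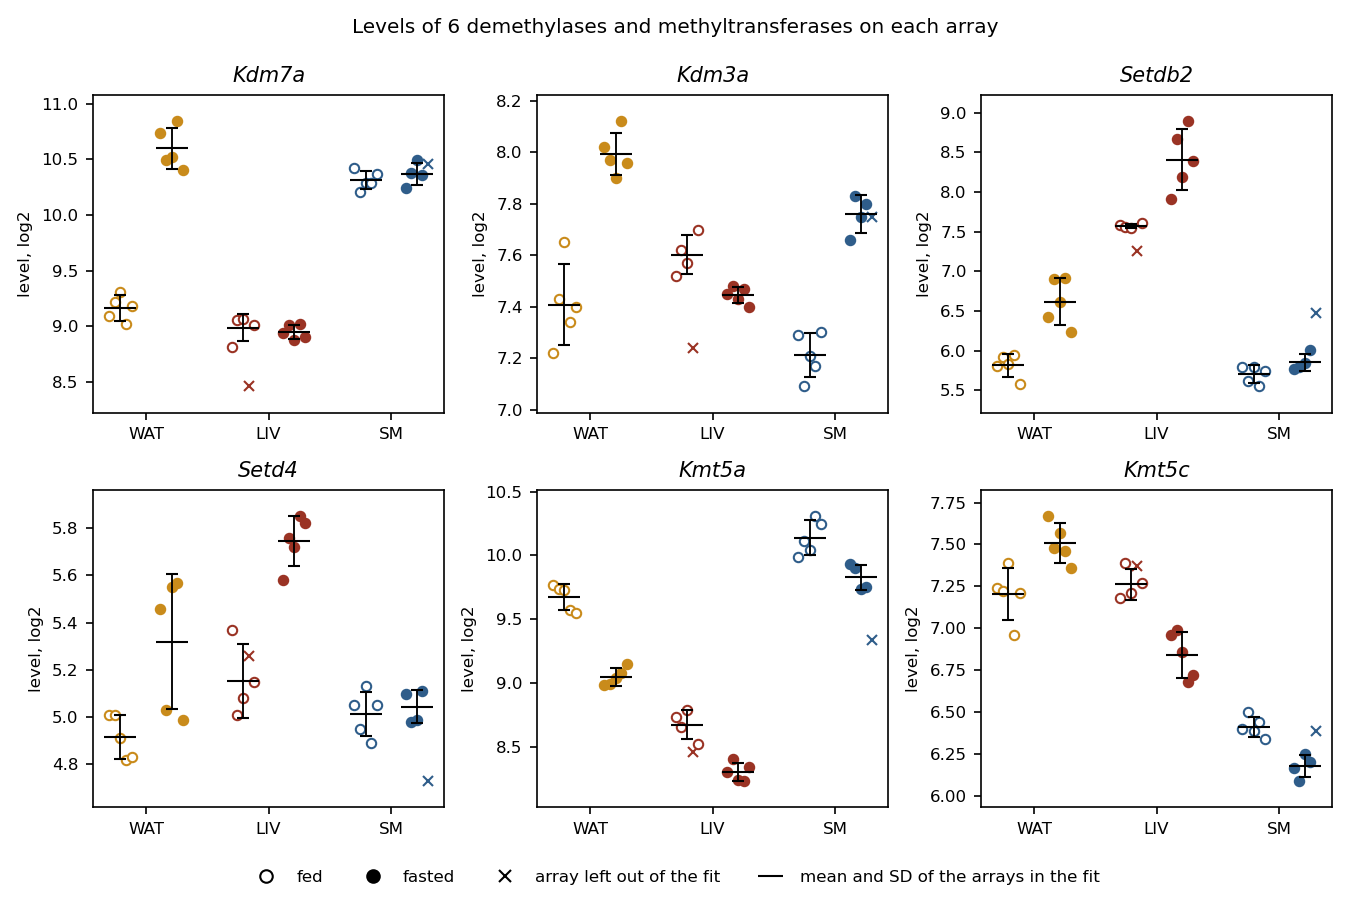
Level (log2 RMA signal, y axis) of 6 enzymes on each array, open circles for fed and filled circles for fasted mice, by tissue (x axis), with the mean and SD of the arrays in the fit. Crosses are the arrays left out. Kdm7a separates fed from fasted in WAT alone, and Setdb2 in WAT and LIV.

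In LIV, 4 of the 64 enzymes were called, 6.25% of them against 7.54% of all genes. The 3 that rose were 4.69% of the enzymes (3.53% of all genes) and the 1 that fell 1.56% (4.01% of all genes). All 4 were among the 22 lysine methyltransferases, and no demethylase, deacetylase, acetyltransferase or arginine methyltransferase was called. Setdb2 measured 7.58, 7.56, 7.55 and 7.61 on the 4 fed arrays of the fit and 7.91, 8.67, 8.19, 8.89 and 8.39 on the fasted ones, with a spread among fasted mice (SD 0.39) far above that among fed mice (SD 0.03). It rose 1.78-fold (0.83 ± 0.142, adjusted p = 0.000139). On the fed array that was left out its level was 7.26, lower still.

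Setd4 measured 5.37, 5.01, 5.08 and 5.15 in fed LIV and 5.58, 5.76, 5.72, 5.85 and 5.82 in fasted LIV. It rose by 0.59 ± 0.101 (adjusted p = 0.000126) without overlap, at a level close to the median of all values on the arrays, 5.022. Setd7, which places a single methyl group on H3K4 and on several other proteins, rose by 0.46 ± 0.077 (adjusted p = 0.000101), from 5.85, 6.07, 6.03 and 6.09 to 6.22, 6.5, 6.41, 6.72 and 6.52. LIV was the tissue in which Setd7 was lowest, and on the probe sets used it was the single called member of the 7 H3K4 methyltransferases there. Another probe set of Kmt2d, 1 of the 7, rose in LIV by 0.45 (adjusted p = 0.000207) at a mean level of 6.16. The probe set used for Kmt2d, with a mean level of 8.62, changed by 0.14 and was not called.

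Kmt5c, which adds the last methyl groups to H4K20 in compact chromatin, fell by 0.42 ± 0.077 (adjusted p = 0.000323), from 7.18, 7.39, 7.21 and 7.27 to 6.96, 6.99, 6.86, 6.68 and 6.72. Its fall came to 0.378 without array 2 of fed LIV, just short of 1.3-fold. Kmt5a lay just outside the limit in LIV with a change of -0.37. Of 10 macrophage markers 4 fell in LIV (Adgre1, Clec4f, Csf1r and Lyz2), with a mean level of 6.62 to 7.01 on fed and 6.29 to 6.67 on fasted arrays, and their part in these changes was not tested. With all 30 arrays 5 enzymes were called in LIV (7.16% of all genes), the same 4 and Kdm6a. Kdm6a measured 6.44 on array 4 of fed LIV, the array left out of the fit, and 7.3 to 7.49 on the other fed arrays. Without the minimum fold, 16 of the 64 passed (15.5% of all genes), 12 of them higher (8.55%) and 4 lower (6.91%).

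In SM, 17 of the 64 enzymes were called, 26.6% of them where 13.6% of all genes were called. Of these, 14 rose (21.9% of the enzymes, 7.8% of all genes) and 3 fell (4.69% of the enzymes, 5.78% of all genes). Among probe sets above the median of all values in some group, which left 62 enzymes, the calls were the same 17 and the share of genes called was 20.7%. The same filter raised the share of genes called to 23.5% in WAT, above that of the enzymes, and to 11.5% in LIV. With a minimum of 1.5-fold in place of 1.3-fold, 3 of the 64 enzymes were called in SM, where 5.78% of all genes were. Lysine methyltransferases gave 7 of the 14 that rose and none of the 22 fell, lysine demethylases gave 5 that rose and 1 that fell of 18, acetyltransferases 2 that rose of 6, and deacetylases 2 that fell of 11.

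**Figure D3:**
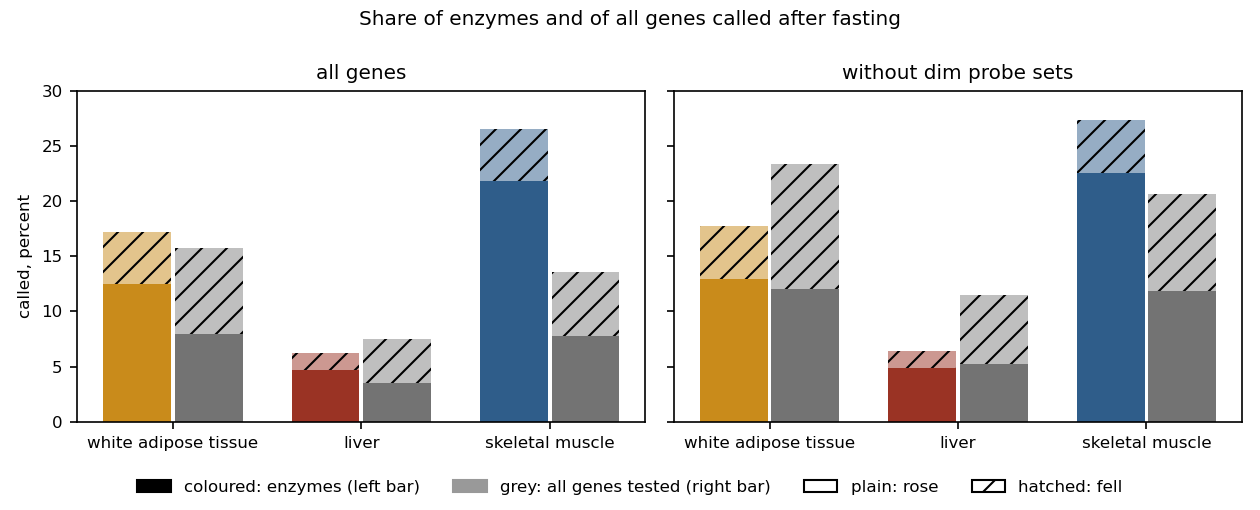
Share of the enzymes (left bar of each pair) and of all genes tested (right bar) called after fasting, in percent, by tissue, with all genes on the left and without dim probe sets on the right. Plain bars rose, hatched bars fell. SM is the tissue with the larger share of enzymes in both panels, 26.6% against 13.6% with all genes.

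Of the 7 H3K4 methyltransferases 4 rose in SM, Setd1a, Setd1b, Kmt2a and Kmt2b, all catalytic subunits of COMPASS complexes, and the median change of the 7 was 0.47. Setd1b measured 7.53, 7.5, 7.4, 7.49 and 7.46 in fed SM and 8.04, 8.1, 8.25 and 8.26 in fasted SM, with no overlap and a rise of 1.61-fold (0.69 ± 0.080, adjusted p = 2.22e-07). Setd1a went from 7.98, 8.0, 7.84, 8.12 and 7.99 to 8.52, 8.57, 8.54 and 8.55, a rise of 0.56 ± 0.061 (adjusted p = 6.18e-08). Another probe set of Setd1a, dim with a mean level of 4.29, gave -0.09, and the average of both was not called.

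Kmt2b, with 7.13, 7.22, 7.26, 7.23 and 7.2 against 7.83, 7.56, 7.89 and 7.82, rose by 0.56 ± 0.082, and Kmt2a by 0.47 ± 0.052. The paralogues Kmt2c and Kmt2d changed by 0.31 and 0.27, each with an adjusted p under 0.05 but below 1.3-fold, and Setd7 by -0.13. Of 12 partner proteins of COMPASS 4 rose in SM, including Wdr5 by 0.55, Men1 by 0.60 and Psip1 by 0.62, which is 33.3% of the list called where 13.6% of all genes were, while none of the 12 was called in WAT (15.7% of all genes) or LIV (7.54%). The median change of the 12 in SM was 0.05. The comparison lists were set against all genes, dim ones included. Without dim probe sets the share of genes called was 20.7% in SM and 23.5% in WAT.

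The same tissue had calls among enzymes of opposite function. The H3K4 demethylases Kdm1a, Kdm5b and Kdm5c rose by 0.42, 0.43 and 0.38, 3 of the 6 measured. For H3K9, the methyltransferase Setdb1 rose by 0.40 and the demethylases Kdm3a and Kdm4b by 0.55 and 0.40. Kdm3a measured 7.29, 7.09, 7.21, 7.17 and 7.3 in fed SM and 7.66, 7.83, 7.75 and 7.8 in fasted SM (adjusted p = 4.5e-07), 0.55 where the rise in WAT was 0.59. Kdm2b, an H3K36 demethylase and partner of a Polycomb complex, was the only demethylase that fell in any tissue, with -0.46 ± 0.090 in SM (adjusted p = 0.000364), from 7.14, 7.07, 7.34, 7.18 and 7.22 to 6.79, 6.61, 6.79 and 6.74.

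Ezh1, the H3K27 methyltransferase of Polycomb repressive complex 2 (PRC2) that predominates in tissues that do not divide, measured 8.7, 8.86, 8.68, 8.85 and 8.59 in fed SM and 9.26, 9.46, 9.38 and 9.49 in fasted SM. It rose 1.58-fold (0.66 ± 0.072, adjusted p = 7.92e-08), and its relative Ezh2 changed by -0.19 and was not called. Of 9 PRC2 partners Eed and Phf1 rose in SM by 0.43 and 0.50, and Jarid2, which guides the complex to its targets, fell by 0.72 (33.3% called, 13.6% of all genes). In WAT Suz12 and Phf1, at 0.40 and 0.39, were among 3 that rose, Rbbp7 fell by 0.42 (44.4% called, 15.7% of all genes), and none was called in LIV. Setd2, the methyltransferase that trimethylates H3K36 behind RNA polymerase, rose by 0.48 ± 0.057, and its other probe set by 0.50.

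**Figure D4:**
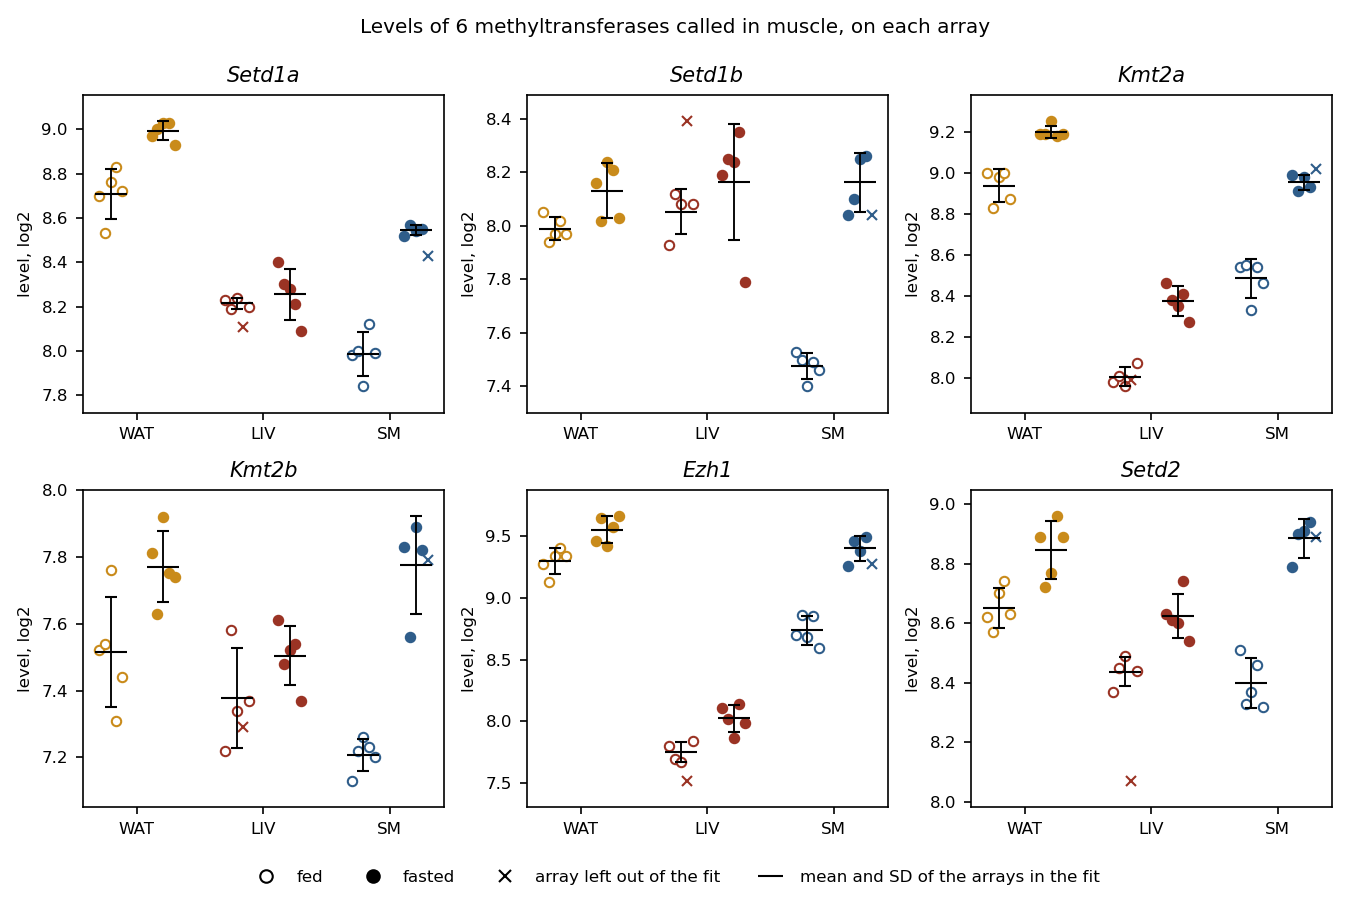
Level (log2 RMA signal, y axis) of 6 methyltransferases called in SM on each array, open circles for fed and filled circles for fasted mice, by tissue (x axis), with the mean and SD of the arrays in the fit and crosses for arrays left out. Fed and fasted arrays of SM do not overlap for any of the 6.

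Of the acetyltransferases, Kat5 (Tip60) measured 6.85, 7.02, 6.8, 7.03 and 7.12 in fed SM and 7.52, 7.45, 7.54 and 7.65 in fasted SM and rose by 0.58 ± 0.077 (adjusted p = 1.83e-06). Kat7, which acetylates H3 and H4 with Jade and Brpf partners, rose by 0.40 ± 0.060. Of 30 partners of acetyltransferase complexes 8 rose and none fell in SM (26.7% called, 13.6% of all genes), with Jade2 at 0.64, Brpf1 at 0.57 and Brpf3 at 0.55. In WAT 9 rose and 1 fell (33.3%, with 15.7% of all genes), with Taf5l at 0.53, Ing4 at 0.50 and Epc1 at 0.48, and in LIV 2 rose and 1 fell (10.0%, with 7.54%).

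Both deacetylases called in SM fell. Hdac9, which binds Mef2 factors and holds back muscle genes, measured 7.42, 7.42, 7.08, 7.35 and 7.18 in fed SM and 6.25, 6.02, 6.16 and 6.07 in fasted SM. Every fasted array lay below every fed one, and Hdac9 fell 2.25-fold (-1.17 ± 0.086, adjusted p = 5.79e-11). Its level on the fasted array left out was 6.15, among the others. Hdac11, the class IV deacetylase, went from 6.59, 6.64, 6.72, 6.59 and 6.43 to 6.21, 6.21, 6.19 and 6.11, a fall of 0.41 ± 0.081 (adjusted p = 0.000343), with 5.89 on the array left out. Of 23 partners and kinases of class IIa deacetylases 2 rose and 3 fell in SM (21.7% called, 13.6% of all genes), among them the kinase Sik1, which rose by 0.94, and Camk1 and Ywhaq, which fell by 0.48 and 0.44. Sik1 rose in WAT too, by 0.87, where 2 of the list rose and 4 fell (26.1%, with 15.7% of all genes), and fell in LIV by 0.64, where 1 rose and 1 fell (8.7%, with 7.54%).

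**Figure D5:**
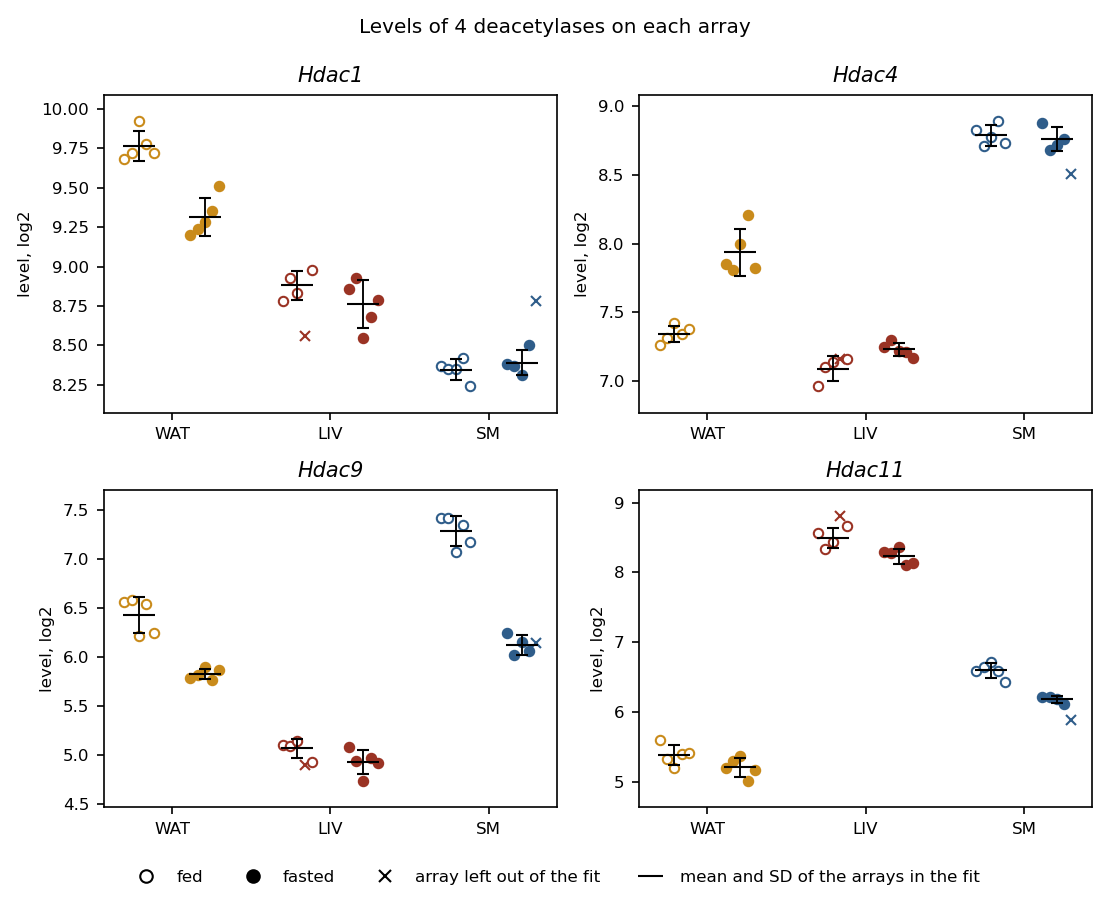
Level (log2 RMA signal, y axis) of the 4 deacetylases called in a tissue on each array, open circles for fed and filled circles for fasted mice, by tissue (x axis), with the mean and SD of the arrays in the fit and crosses for arrays left out. Hdac9 is lower in all fasted than in all fed arrays of WAT and of SM, Hdac1 separates in WAT, and Hdac4 in WAT and, narrowly, in LIV (at most 7.16 fed, at least 7.17 fasted).

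The SM calls just inside and just outside 1.3-fold were Kdm5c at 0.38 and Kdm6a at 0.37. Kat7 came to 0.37 without array 5 of fed SM, Kdm1a to 0.37 without array 3 of fasted SM, Setdb1 to 0.36 without array 4 of fasted SM, and Kdm5c to as little as 0.37 without array 3 or 5 of fed SM or array 3 of fasted SM, each below the limit. With all 30 arrays 16 enzymes were called (13.2% of all genes), 12 higher and 4 lower: Kdm4b, Kdm5c and Setdb1 were lost, Kdm6a and Kmt5a gained. Kmt5a measured 9.34 on array 5 of fasted SM, the array left out of the fit, and 9.74 to 9.93 on the other fasted arrays. Repeating the quantile normalisation left 11 calls (13.1% of all genes), 8 higher (7.3%) and 3 lower (5.77%), all among the 17. The mean level of 7 slow fibre markers spread from 5.39 to 10.21 over the fed and from 8.34 to 9.86 over the fasted SM arrays, with none of the 7 called. It averaged 8.26 (SD 2.05) on the fed and 9.07 (SD 0.69) on the fasted arrays. The median change of the 7 was 0.85, so fibre content was not shown to be alike in the 2 groups. Of the 10 macrophage markers Cd163 and Cd68 rose in SM by 0.73 and 0.52, with a mean level of 5.74 to 6.08 on fed and 5.85 to 6.27 on fasted arrays, and of 6 endothelial markers Kdr fell by 0.82, with a mean level of 8.24 to 8.62 and 8.14 to 8.47. The part of these markers in the SM changes was not tested. Without the minimum fold, 35 of the 64 enzymes passed (26.3% of all genes), 26 of them higher (14.4%) and 9 lower (11.9%).

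The difference of the fasting change between tissues was tested for each enzyme. These contrasts share arrays, since each tissue enters 2 of them, and the labels do not say whether a number marks the same mouse in all tissues. Between WAT and LIV 9 enzymes differed (14.1% of them, 16.1% of all genes), between WAT and SM 17 (26.6%, with 15.1% of all genes) and between SM and LIV 17 (26.6%, with 15.3% of all genes). Without dim probe sets the counts stayed at 9, 17 and 17, of 62 enzymes, and 24.8%, 23.3% and 23.6% of genes differed in that order. The change was higher in WAT than in LIV for 7 of the 9 (8.18% of all genes) and lower for 2 (7.9%), higher in WAT than in SM for 11 of the 17 (7.37%) and lower for 6 (7.7%), and higher in SM than in LIV for 11 (7.98%) and lower for 6 (7.29%). Kdm7a changed more in WAT than in LIV by 1.47 ± 0.11 (adjusted p = 3.87e-10) and more than in SM by 1.38 ± 0.11 (adjusted p = 9.27e-10). Kdm3a changed more in WAT and in SM than in LIV, by 0.74 ± 0.092 and 0.70 ± 0.094, and was -0.16 in LIV. Hdac9 fell more in SM than it changed in LIV, a difference of -1.03 ± 0.122 (adjusted p = 6.42e-07). Kmt5c changed by 0.30 in WAT and by -0.42 in LIV, 0.73 apart (adjusted p = 1.51e-05), and Kdm2b by 0.18 in WAT and -0.46 in SM, 0.64 apart (adjusted p = 0.00047).

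The rise of Setdb2 was larger in WAT than in SM by 0.66 ± 0.196 (adjusted p = 0.0196), and its change in SM lay 0.68 below that in LIV (-0.68 ± 0.201, adjusted p = 0.0183). Both rest on the choice of SM arrays. Setdb2 measured 6.47 on array 5 of fasted SM, the array with the high lymphocyte markers, while the other 4 fasted arrays lay below the lowest fasted WAT array. With all 30 arrays the difference from WAT was 0.53 (adjusted p = 0.104), not called, and that from LIV -0.62 (adjusted p = 0.0457). With array 1 of fasted SM left out in place of array 5 the values were 0.48 (adjusted p = 0.153) and -0.51 (adjusted p = 0.13).

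Levels in fed mice were compared between tissues in the same fit. Between WAT and LIV 28 of the 64 enzymes differed (43.8%, with 44.4% of all genes), between WAT and SM 27 (42.2%, with 47.2%) and between SM and LIV 41 (64.1%, with 47.9%). Of the 28, 21 were higher in WAT (25.7% of all genes) and 7 in LIV (18.7%). Of the 27, 13 were higher in WAT (27.2%) and 14 in SM (20.1%). Of the 41, 28 were higher in SM (26.2%) and 13 in LIV (21.8%). Without dim probe sets the counts stayed at 28, 27 and 41, of 62 enzymes. The share of genes that differed was then 63.5% between WAT and LIV, 68.3% between WAT and SM and 69.6% between SM and LIV. SM was the tissue of highest level against both others for 13 enzymes, WAT for 7 and LIV for 6, and LIV that of lowest level for 16, SM for 7 and WAT for 2. The same ranking was not counted for all genes, so whether these numbers are particular to the enzymes is not known. Setd7 had a mean fed level of 10.43 in SM, 8.79 in WAT and 6.01 in LIV, whereas Hdac11 was highest in LIV with 8.5, against 6.59 in SM and 5.38 in WAT. Hdac9 followed the order SM, WAT, LIV with 7.29, 6.43 and 5.07, and Setdb2 was higher in LIV (7.58) than in WAT (5.82) and SM (5.7). For Setdb2 fed WAT and fed SM lay 0.11 apart (adjusted p = 0.498), which was not called. Kdm7a at 10.32 and Hdac4 at 8.79 were highest in fed SM, and the fasted WAT arrays of Kdm7a reached that level. Kdm4d and Prmt8 were at or below the median of all values in every group.

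Enzymes outside the naming rule were listed by function for comparison. Of 25 other writers 2 rose and 2 fell in WAT (16.0% called, 15.7% of all genes), with Smyd3 at 0.62 and Smyd1 at -0.57. In LIV 2 rose (8.0%, with 7.54%), Setmar by 0.54 and the H3K79 methyltransferase Dot1l by 0.40. In SM 1 rose and 3 fell (16.0%, with 13.6%), with Nsd3 at 0.40, Setmar at -0.58 and Naa60 at -0.41. Of 15 other erasers 2 rose in WAT (13.3% called, 15.7% of all genes), 1 in LIV (6.67%, with 7.54%) and 3 in SM (13.6% of all genes), and none fell. The deacetylase Sirt1 rose in WAT by 0.52 and in SM by 0.45, Jmjd1c, a relative of Kdm3a, rose in WAT by 0.50, and Riox1 and Phf8 rose in SM by 0.97 and 0.46. Riox1 had a low signal, with a mean level of 4.27 in fed and 5.24 in fasted SM, where the median of all values was 5.022. Of 23 partners of deacetylase complexes 5 rose and none fell in SM (21.7%, with 13.6% of all genes), with the scaffold Sin3a at 0.59. In WAT 2 rose and 1 fell (13.0%, with 15.7%), with Mta1 at 0.40 and Rcor2 at -0.65, and in LIV 1 rose, Brms1 by 0.39 (4.35%, with 7.54%). Smyd1 and Rcor2 lay near the median of all values too, with mean levels of 5.14 and 5.28 in fed WAT and 4.56 and 4.63 in fasted WAT. Among 19 genes that supply or spend the enzymes' substrates 7 fell and 1 rose in WAT (42.1%, with 15.7%), 2 fell in LIV (10.5%, with 7.54%), and 3 rose and 1 fell in SM (21.1%, with 13.6%). The acetyl-CoA producing enzymes Acly and Acss2 fell in WAT, with changes of -1.94 and -1.55, and in LIV, with -1.14 and -1.37, and Idh1, which makes oxoglutarate, was also among those that fell in WAT. In SM Acss1, the mitochondrial counterpart of Acss2, rose by 1.39.

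The genes whose values went most alike with an enzyme were ranked by Pearson's r over the 28 arrays after the mean of each tissue was taken off, as a description in which arrays of 1 diet are not independent points. For Kdm7a they were Pdk2 (r = 0.972), a kinase that shuts pyruvate dehydrogenase, Irf4 (0.971) and Sephs2 (0.97). Irf4 rose by 3.82 in WAT. Dcaf6 (0.905), Gadd45b (0.895) and Slc25a32 (0.892) were most alike to Setdb2, and Hps5 (0.925), Rnf170 (0.916) and Ric8b (0.91) to Hdac9.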

How the data were processed

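Total RNA (150 ng per array) of 30 samples was hybridised to Mouse Gene 1.1 ST arrays, 5 fed and 5 fasted mice in each of 3 tissues. The authors deposited log2 values made with RMA in Partek, 1 per probe set and array (28815 probe sets), and these were used as given. RMA draws the arrays toward a like distribution (array medians 4.91 to 5.16 here), so changes are relative to the other genes of an array. The raw intensities, scan dates and slides were not used here, and the annotation build behind the probe sets is not given in the sources used here. Probe sets were named by the platform annotation (21153 name 1 gene, 1867 several, and 5795 are not listed), all 64 enzymes were found in RefSeq by gene ID, and 0 symbols were updated. Suv39h1 and Suv39h2 were not analysed here.

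The enzymes, the comparison lists and the markers were chosen with earlier results of these data known. A model with 1 mean for each of 6 groups was fitted to 28 arrays with limma 3.58.1 in R 4.3.3, with empirical Bayes moderation, and Benjamini-Hochberg adjustment was made across the 28815 probe sets of each contrast. Named were all enzymes called in a tissue, the 3 largest called differences between tissues of each pair, up to 3 called genes of each comparison list in a tissue, and the 3 genes most alike to the enzyme with the largest change of each tissue. Precision is limited by the 4 or 5 arrays of a group. On simulated data with 67 probe sets changed 1.5-fold among 28815, the model called 62 in WAT, 56 in LIV and 59 in SM. The simulated noise was normal, with the same SD in every group for a probe set. No change was added to 28615 of the probe sets in each simulated tissue. In the data 31.0% of genes in WAT, 15.5% in LIV and 26.3% in SM had an adjusted p under 0.05. The adjustment thus set a different limit in the simulation, and its recovery may not carry over to the data. No added change smaller than 1.5-fold was tried, so calls between 1.3-fold and 1.5-fold are not covered. Alternatives changed the arrays, the model, the normalisation, the probe sets or the limits 1 at a time, except that array weights were fitted to all 30 arrays. The paper's text names array 1 of fasted SM in place of array 5, and that set was one of them.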

Additional observations from a re-analysis of the deposited data

Results flagged for a closer look

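One array stood apart within its group by Dixon's test: Kdm3b on array 3 of fed WAT was 8.83 and the 4 other arrays lay between 8.57 and 8.64. Chance sets about 1 in 20 groups apart in this way, and 64 groups were looked at.

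The change after fasting differed between tissues by the interaction contrast in limma for 9 named differences. Kdm7a stood 1.47 higher in WAT than in LIV and 1.38 higher than in SM. Kdm3a stood 0.74 higher in WAT than in LIV and 0.70 higher in SM than in LIV, and Kmt5c 0.73 higher in WAT than in LIV. Kdm2b stood 0.64 higher in WAT than in SM, and the difference of Hdac9 between SM and LIV was -1.03. For Setdb2 it was 0.66 between WAT and SM and -0.68 between SM and LIV. The contrasts share arrays. Each of the 9 kept its call without any single array of the 28, but those of Setdb2 lost it with array 1 of fasted SM left out in place of array 5, at 0.48 (adjusted p = 0.153) and -0.51 (adjusted p = 0.13).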

How the results depend on the processing

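Of the 32 calls within a tissue, 0 changed direction under any of the alternatives run, 24 were kept without each of the 28 arrays in turn, and 21 were kept under all of these and all settings other than a stricter limit. Counts depended on the minimum fold. Without it 35 enzymes were called in WAT (31.0% of all genes), 16 in LIV (15.5%) and 35 in SM (26.3%). With 1.5-fold they were 6, 2 and 3, of the same 11, 4 and 17, where 7.03%, 3.27% and 5.78% of all genes were called. In SM the 3 of 64 enzymes were then a smaller share than that of all genes. With a false discovery rate of 1% all 32 were kept. Differences of the change went, without a minimum fold, to 14 between WAT and LIV (20.9% of all genes) and 30 between WAT and SM (20.2%). At 1.5-fold they were 3 for WAT and LIV (8.39%), 4 for WAT and SM (7.7%) and 6 for SM and LIV (7.73%). Fed levels without a minimum fold differed for 51 enzymes between WAT and LIV (60.1% of all genes) and 49 between WAT and SM (63.6%). At 1.5-fold they differed for 15 between WAT and LIV (34.2%) and 26 between SM and LIV (38.0%). Repeated quantile normalization left 11 enzymes in SM (13.1% of all genes), and the cause was not tested. Without 1 array, the enzymes called ranged from 9 to 12 in WAT, 4 to 6 in LIV and 15 to 21 in SM, the differences from 8 to 10 (WAT and LIV), 15 to 18 (WAT and SM) and 15 to 17 (SM and LIV), and the fed levels from 27 to 29, 26 to 29 and 38 to 41. The shares of all genes in these fits are not given here, so the ranges show only how the enzyme counts moved.

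The replicate numbers did not meet the test for pairing (every correlation above 0.1): deviations from the group means of same-numbered fed and fasted arrays of a tissue correlated at -0.252 to 0.163, and 2 of 26 arrays correlated best with their own number. Between tissues of 1 diet the same-numbered arrays correlated at -0.122 to 0.177, and whether they come from the same mouse is not in the labels. With the number as a replicate block, 11 enzymes were called in WAT (15.6% of all genes), 4 in LIV (6.87%) and 16 in SM (13.4%). The differences were then 9 (15.3% of all genes), 16 (13.8%) and 14 (14.1%). That block could not be fitted to the fed levels. With the mouse number within diet as a random block across tissues, fed levels differed for 27, 27 and 41 enzymes (44.4%, 47.2% and 47.9% of all genes). The differences of the change were 9, 17 and 17 (16.2%, 15.3% and 15.5% of all genes). Signal limits Kdm4d and Prmt8, which were dim in every group.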
